A study of Mus musculus with 4 samples.

Results

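The receptor chains and ligands that work through gp130 were followed in plasmacytoid dendritic cells (pDCs) with and without the receptor kinase Flt3. The family was defined by symbol as 9 genes: gp130 itself (Il6st), the partner chains Il6ra, Lifr, Osmr, Il11ra1 and Il27ra, and the ligands Il6, Osm and Lif. Of these, 8 had a probe set annotated to that gene alone, 1 each, among 19938 genes measured in this way, and Il11ra1 was not analysed here. The genes were put together with differences between Flt3 KO and WT arrays already known, Il6st and Il6ra among them. Their differences are therefore given as a description, with standard errors (SE) and no p-value for any of them; how many were past the threshold is given once, beside the share of all genes.

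The samples were mature pDCs sorted from spleens of mice at steady state, 2 biological replicates from WT animals and 2 from Flt3 KO animals, each on its own whole-transcript GeneChip array. The labels name the genotypes only as WT and Flt3 KO; the allele, strain, age, sorting gates and whether a replicate was 1 mouse or a pool are not stated there. The limma p-values below set each difference against the spread between replicates, estimated in part from all genes. How much of that spread is between animals is thus not known. All values are log2 of the intensity that the authors deposited, and differences subtract the WT mean from the Flt3 KO mean. On this scale the median of all genes was 5.89; levels of different genes are not compared, because probe sets differ in brightness. Flt3 had log2 values of 10.71 and 10.77 in WT arrays and of 8.46 and 8.61 in Flt3 KO arrays, and fell by 2.21 (SE 0.066, limma adjusted p = 7.4e-05), with an adjusted p of 0.063 without WT replicate 1 and 0.074 without WT replicate 2. The defining pDC genes Siglech, Bst2 and Tcf4 lay between 12.15 and 12.93 on the 4 arrays.

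Cytokines of the IL-6 family signal by bringing gp130, the chain they share, together with a partner. IL-6 first binds the IL-6 receptor chain encoded by Il6ra; LIF and oncostatin M pair gp130 with the chains encoded by Lifr or Osmr; IL-27 pairs it with the chain encoded by Il27ra. Kinases of the JAK family bound to the chains then activate STAT3, and SOCS3 binds to gp130 and shuts the signal off. Flt3 also signals through STAT3, a route known for its part in dendritic cell development.

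Among the receptor chains, the transcripts of gp130 and of the IL-6 receptor were higher in Flt3 KO pDCs by nearly the same amount. The transcript of the IL-27 receptor chain was lower, and that of the LIF receptor differed little. That of the oncostatin M receptor lay below the median of all genes, and its difference is not settled by these arrays. Il6st had log2 values of 10.06 and 10.20 in WT against 10.88 and 11.04 in Flt3 KO, which are deposited intensities of 1068 and 1176 against 1887 and 2104. Both Flt3 KO arrays lay above both WT arrays, with 0.68 between the nearest pair. The means were 10.13 ± 0.098 and 10.96 ± 0.111 (SD, n = 2 each), a difference of 0.83 (SE 0.071) or 1.78-fold. In rank, Il6st was number 68 of the 19938 genes from the most raised. In bulk samples such as these, a change in the number of cells that carry a transcript and a change in the amount per cell cannot be told apart.

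Il6ra had log2 values of 8.99 and 9.28 in WT against 9.76 and 10.11 in Flt3 KO, or intensities of 507.8 and 619.6 against 866.1 and 1105. The genotypes did not overlap, but its replicates were spread more widely than those of Il6st: the second replicate exceeded the first by 0.29 in WT and by 0.35 in Flt3 KO, where the gaps for Il6st were 0.14 and 0.16. The means were 9.13 ± 0.203 and 9.93 ± 0.248 (SD, n = 2 each), and the difference was 0.80 (SE 0.13) or 1.74-fold, number 75 from the most raised gene. Without Flt3 KO replicate 2 the difference was 0.75 for Il6st and 0.63 for Il6ra, and without Flt3 KO replicate 1 it was 0.91 and 0.98.

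Il27ra went the other way. Its log2 values were 7.46 and 7.41 in WT against 7.04 and 6.95 in Flt3 KO, with both Flt3 KO arrays below both WT arrays and 0.37 between the nearest pair. The means were 7.43 ± 0.036 and 6.99 ± 0.066 (SD, n = 2 each), so that Il27ra was lower by a log2 difference of −0.44 (SE 0.076).

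Lifr, which pairs with gp130 for LIF, had log2 values of 9.56 and 9.56 in WT against 9.70 and 9.61 in Flt3 KO. The groups stood 0.05 apart, and the difference was 0.0981 (SE 0.056), beside 0.83 for Il6st; Lifr lay above the median of all genes on every array. Osmr, the partner for oncostatin M, had 4.54 and 4.48 in WT against 4.56 and 4.37 in Flt3 KO. These values overlapped and all lay under 5.89, in the range where arrays separate signal from background poorly. The Osmr difference of −0.0433 (SE 0.11) turned to 0.05 without Flt3 KO replicate 2. Lifr and Osmr are neighbouring protein-coding genes on chromosome 15 in the RefSeq annotation of GRCm38.p6.

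The ligand genes were dim in both genotypes. Il6 had log2 values of 3.05 and 3.28 in WT against 3.37 and 3.42 in Flt3 KO, or intensities of 8.304 to 10.67. Its groups stood 0.09 apart, and its difference of 0.23 (SE 0.11) shrank to 0.084 when 16 was added to each intensity. Osm had 4.90 and 4.48 in WT against 4.59 and 5.06 in Flt3 KO, so that its replicates differed by more than its genotypes, and its difference of 0.14 (SE 0.19) became −0.095 without Flt3 KO replicate 2 and −0.068 without WT replicate 2. Lif, the gene next to Osm on chromosome 11, had 4.85 and 4.89 in WT against 4.81 and 5.06 in Flt3 KO. Its groups overlapped, and the difference of 0.0632 (SE 0.11) became −0.058 without Flt3 KO replicate 2. All 3 ligand genes lay below the median of all genes on every array, and no level of ligand transcript is read from them.

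**Figure D1:**
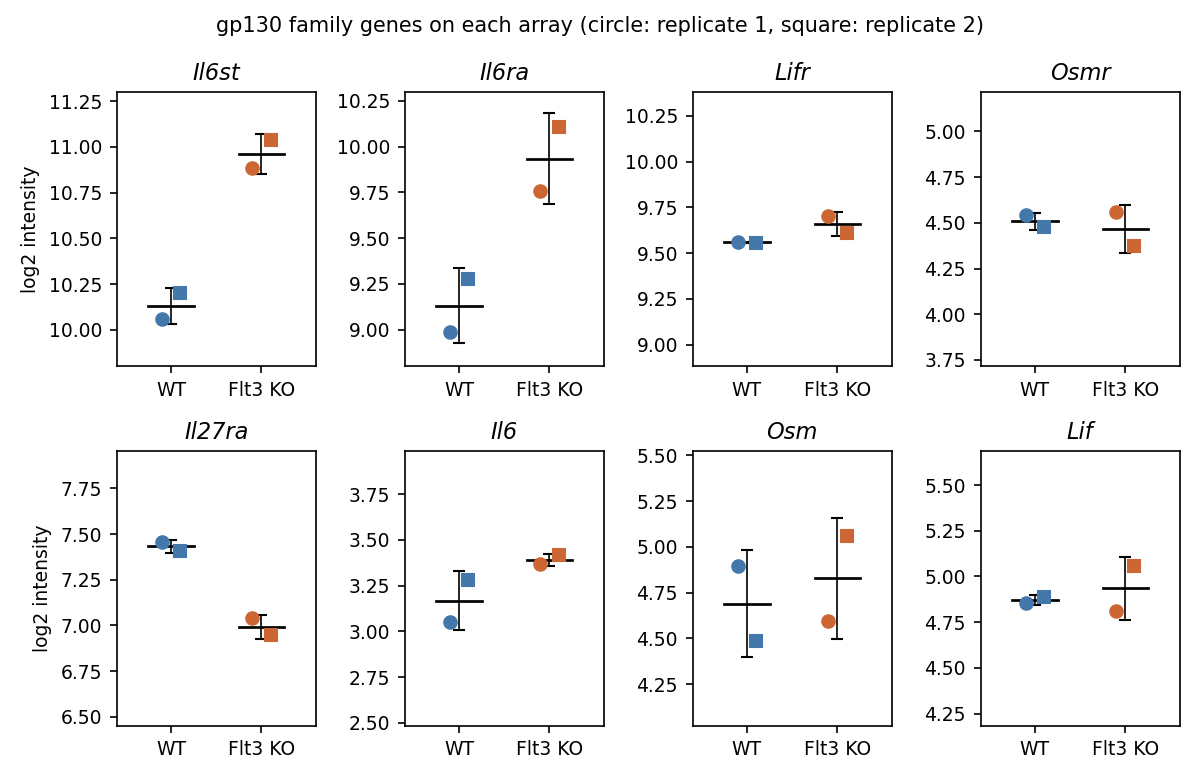
Log2 intensity (vertical axis, 1.5 units in each panel) of the 8 measured gp130 family genes on the 2 WT arrays (blue) and the 2 Flt3 KO arrays (orange); circles are replicate 1, squares replicate 2, horizontal lines the group means and bars the SD. Il6st and Il6ra lie higher in both Flt3 KO arrays and Il27ra lower, while the groups overlap for Osmr, Osm and Lif.

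Counted together, 3 of the 8 measured genes were past an adjusted p of 0.05 in limma, 2 higher (Il6st and Il6ra) and 1 lower (Il27ra), where 2.39% of all genes were past it, 1.08% higher and 1.31% lower. The groups did not overlap for 5 of the 8, against 47.2% of all genes, and 4 of these 5 were higher in Flt3 KO and 1 lower, against 21.9% and 25.3%. The median difference of the 8 was 0.12, beside −0.001 for all genes. The genes were chosen with this comparison in view, and nothing is read from these counts. No family gene was past the threshold without WT replicate 1, WT replicate 2 or Flt3 KO replicate 2, and Il6st alone was past it without Flt3 KO replicate 1.

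The protein-coding genes that flank the family genes gave a local comparison, chosen after the values were known. Beside Il6st on chromosome 13 lie Ankrd55, with a difference of 0.34 (adjusted p = 0.15), and Il31ra, which encodes a related receptor chain, with 0.18 (adjusted p = 0.48); both were below 5.89 in both genotypes. The neighbours of Il6ra on chromosome 3, She and Atp8b2, had differences of −0.0072 and −0.041. Those of Il27ra on chromosome 8, Palm3 and Rln3, had −0.039 and 0.12. None of these 6 neighbours was past the threshold in limma (adjusted p from 0.15 to 0.99), where 2.39% of all genes were. She and Palm3 were also below 5.89 in both genotypes, and Rln3 lay near it (5.8 in WT and 5.92 in Flt3 KO). Atp8b2 alone lay well above it (8.94 and 8.9), and nothing is read from the count.

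The sequences upstream of Il6st and Il6ra are shown because these genes were higher together. Each is the 250 bases before the annotated start from RefSeq (GRCm38.p6), written 5′ to 3′ on the strand of the gene. Il6st lies at chr13:112463820-112464069 on the plus strand and Il6ra at chr3:89913197-89913446 on the minus strand.
Il6st: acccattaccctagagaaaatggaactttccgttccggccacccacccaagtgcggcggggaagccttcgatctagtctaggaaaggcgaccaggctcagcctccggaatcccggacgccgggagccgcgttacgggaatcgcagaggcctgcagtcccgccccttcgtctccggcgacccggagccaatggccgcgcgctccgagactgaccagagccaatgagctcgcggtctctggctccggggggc
Il6ra: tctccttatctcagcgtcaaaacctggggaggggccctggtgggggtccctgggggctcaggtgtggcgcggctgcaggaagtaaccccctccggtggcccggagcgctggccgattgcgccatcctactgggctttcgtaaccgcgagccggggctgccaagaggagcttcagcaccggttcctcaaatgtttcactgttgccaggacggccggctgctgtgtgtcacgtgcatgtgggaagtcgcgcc
Both are rich in G and C, with 66% and 65.2%, where the median window of the table had 52.4%. This is not particular to them: Osmr had 66%, Lif 63.6% and Lifr 82.4% and 50.8% at its listed starts. Il11ra1 had 57.2% and 56.8%, and Il6 had 42.8%. STAT proteins bind sites of the form TTCNNNGAA, a motif that is its own reverse complement. It was found in 7.02% of 32851 windows of this length and in none of the 9 windows listed for 7 of the family genes, Il6st and Il6ra included. Il27ra and Osm had no entry.

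To place the family in its pathway, 79 further genes were listed in 6 groups by role, of which 74 were measured. In limma 8 of the 74 were past the threshold (10.8%, against 2.39% of all genes): 7 rose and Il12rb2 fell. At an unadjusted p under 0.05 there were 21 of 74 (28.4%), 17 higher and 4 lower, where 17.1% of all genes had one, 6.95% higher and 10.1% lower. The median difference was 0.051, beside −0.001 for all genes. The lists were drawn up with earlier results known, including rises of Socs3, Bcl6 and Mcl1, and the counts are a description of the lists. None of the 8 was past the threshold with any 1 array left out, where 1 residual degree of freedom remains. Only Jak2 and Il12rb2 were past it without the intensity trend.

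Of 7 measured further receptor chains, Il12rb2 fell and 6 did not pass. Il12rb2 encodes a chain of the IL-12 receptor that also pairs with gp130 for IL-35. Its log2 values were 8.61 and 8.62 in WT against 8.08 and 8.04 in Flt3 KO, a narrow pair in each genotype with no overlap. It fell by 0.56 (SE 0.061, adjusted p = 0.0085), and the difference lay between −0.58 and −0.54 with any 1 array left out. Csf3r, the receptor gene for G-CSF and a relative of gp130 that is also on the neutrophil marker list, had a difference of 0.32 (adjusted p = 0.27). Ebi3, which encodes the subunit shared by IL-27 and IL-35, had −0.18 (adjusted p = 0.36).

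Of 8 measured further ligand genes, Il12a rose and 7 did not pass. Il12a encodes the subunit shared by IL-12 and IL-35; its log2 values were 7.63 and 7.38 in WT against 7.96 and 8.15 in Flt3 KO, without overlap. The difference was 0.56 (SE 0.11), with an adjusted p of 0.049 close to the threshold. Il12b, the other subunit gene of IL-12, had 0.25 (adjusted p = 0.24) and Il11 had 0.17 (adjusted p = 0.41), and both lay below the median of all genes in both genotypes.

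Of 12 measured kinases, STATs and adaptors, Jak2 and Stat5a rose and 10 did not pass. Jak2 encodes a kinase that binds gp130. It had log2 values of 8.71 and 8.81 in WT against 9.39 and 9.52 in Flt3 KO, a rise of 0.69 (SE 0.070, adjusted p = 0.0071) or 1.62-fold, with a range of 0.63 to 0.75 when any 1 array was left out. Stat5a had 8.16 and 8.11 in WT against 8.62 and 8.81 in Flt3 KO, a rise of 0.58 (SE 0.079, adjusted p = 0.017). The groups did not overlap for either gene, as was so for 47.2% of all genes. Ptpn11, which encodes the phosphatase SHP2 that docks on gp130, had a difference of 0.17 (adjusted p = 0.19). Stat3, the main STAT of this route, had log2 values of 11.37 and 11.34 in WT against 11.43 and 11.45 in Flt3 KO; Jak1, the other main kinase of gp130, had 10.65 and 10.70 against 10.72 and 10.72. Their differences were 0.0869 (SE 0.042, adjusted p = 0.35) and 0.0399 (SE 0.046, adjusted p = 0.73); both genes are named outside the rule, after their values were seen.

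Of 12 negative regulators, Socs3 rose and 11 did not pass. Socs3 encodes the feedback inhibitor that binds gp130; its brighter probe set had log2 values of 8.06 and 7.98 in WT against 8.46 and 8.70 in Flt3 KO, a rise of 0.56 (SE 0.090, adjusted p = 0.028). A dimmer Socs3 probe set had a difference of 0.1022, and with both averaged the difference was 0.33 (adjusted p = 0.069). Ptpn2 and Ptpn1, genes of phosphatases that act on JAK kinases and STATs, had −0.16 (adjusted p = 0.31) and 0.0932 (adjusted p = 0.38). The sign of Ptpn2 depended on the probe set, since its other one had 0.1746.

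Of 24 genes listed as STAT3 targets, Cebpd, Mcl1 and Bcl6 rose and 21 did not pass; 8 stood above (33.3%, against 6.95% of all genes) and 1 below WT (4.17%, against 10.1%) at an unadjusted p under 0.05, and the list median was 0.13. Cebpd, a transcription factor gene of the acute-phase response, had log2 values of 6.68 and 6.86 in WT against 7.27 and 7.27 in Flt3 KO, a rise of 0.50 (SE 0.087, adjusted p = 0.038). Mcl1, a survival gene of the BCL2 family, rose by 0.47 (SE 0.061, adjusted p = 0.015), from 9.43 and 9.56 to 9.97 and 9.96. Bcl6, which encodes a transcriptional repressor, had 7.84 and 7.83 in WT against 8.23 and 8.27 in Flt3 KO, a rise of 0.42 (SE 0.064, adjusted p = 0.022). The genotypes did not overlap for any of the 3, as was so for 47.2% of all genes. Many of the listed targets also respond to other signals, and the arrays do not measure STAT3 activity.

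Of 11 genes for shedding and trafficking of the receptors, 0 were past the threshold in limma and the median was −0.048. An unadjusted p under 0.05 was reached by 2 (18.2%, against 17.1% of all genes). Rhbdf2 encodes an inactive rhomboid that escorts the sheddase ADAM17, and Adam10 encodes another sheddase of the IL-6 receptor. Their differences were −0.16 (adjusted p = 0.24) and −0.17 (adjusted p = 0.26). Erap1 had −0.11 (adjusted p = 0.50).

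**Figure D2:**
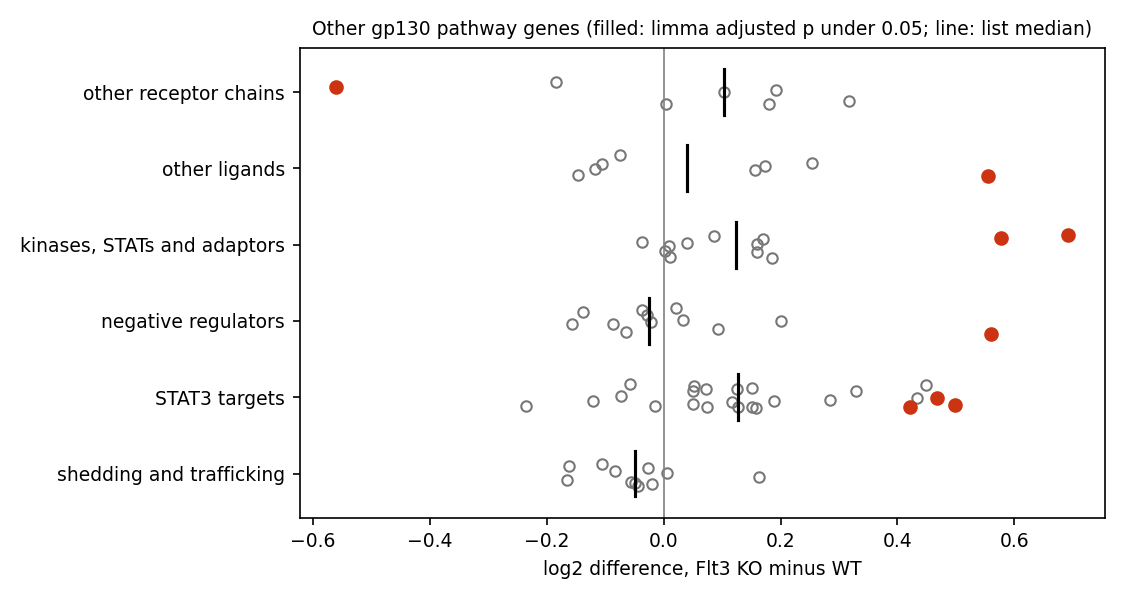
Log2 difference, Flt3 KO minus WT (horizontal axis), of each of the 74 measured pathway genes in 6 lists; filled points are past a limma adjusted p of 0.05 and vertical lines are list medians. The 7 filled points to the right are the genes that rose, and the filled point at the far left is Il12rb2.

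**Figure D3:**
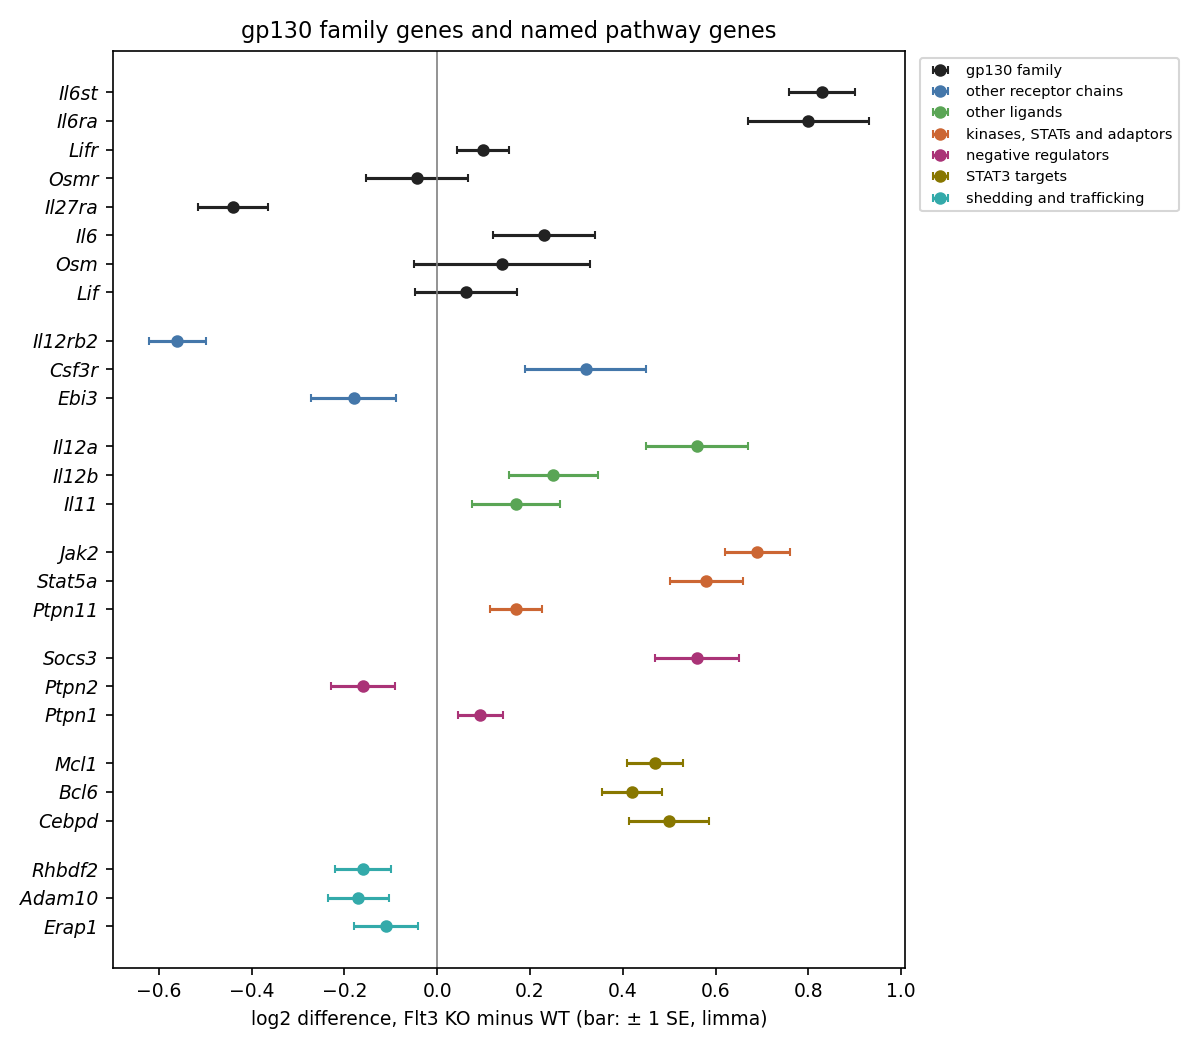
Log2 difference, Flt3 KO minus WT (horizontal axis, bars ± 1 SE from limma, 2 arrays per genotype), of the gp130 family genes and of the pathway genes named by rule. Il6st, Il6ra and Jak2 lie farthest to the right and Il12rb2 and Il27ra farthest to the left.

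The upstream sequences of the pathway genes that passed were read in the same way. Of the 8, 7 had an entry and 3 held TTCNNNGAA in at least 1 window, namely Bcl6, Socs3 and Il12rb2. Of these genes 2 rose and the third fell. The share of 7.02% counts single windows and not genes, and Bcl6, Il12a and Stat5a have more than 1 window. Bcl6 was listed as a STAT3 target and Socs3 as a feedback inhibitor, so nothing is read from this count. The windows are shown with the matches in capitals: Socs3 at chr11:117969367-117969616, Bcl6 at chr16:23981284-23981533 and Il12rb2 at chr6:67376189-67376438, all on the minus strand of GRCm38.p6.
Socs3: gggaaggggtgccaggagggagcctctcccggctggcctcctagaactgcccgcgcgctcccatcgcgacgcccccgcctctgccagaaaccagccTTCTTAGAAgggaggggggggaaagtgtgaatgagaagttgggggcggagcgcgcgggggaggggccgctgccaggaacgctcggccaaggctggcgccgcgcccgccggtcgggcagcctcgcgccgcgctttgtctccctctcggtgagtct
Bcl6: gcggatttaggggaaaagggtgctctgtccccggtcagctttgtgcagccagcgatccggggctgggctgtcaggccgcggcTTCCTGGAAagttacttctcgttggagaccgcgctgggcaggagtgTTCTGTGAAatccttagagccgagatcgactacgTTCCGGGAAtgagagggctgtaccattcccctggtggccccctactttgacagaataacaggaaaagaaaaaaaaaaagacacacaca
Il12rb2: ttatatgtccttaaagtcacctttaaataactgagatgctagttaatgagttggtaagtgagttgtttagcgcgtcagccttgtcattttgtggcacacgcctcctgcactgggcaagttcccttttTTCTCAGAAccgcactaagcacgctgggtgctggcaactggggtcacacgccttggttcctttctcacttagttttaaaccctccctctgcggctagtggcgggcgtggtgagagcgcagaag
The Socs3 match, TTCTTAGAA, begins 154 bases before the start. Those of Bcl6 begin 168, 122 and 88 bases before it, and another listed start of Bcl6 had 1 match. The Il12rb2 match, TTCTCAGAA, begins 123 bases before the start. A match in these letters is not evidence that a factor binds there.

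The genes whose pattern over the 4 arrays was most like that of Il6st and of Il6ra were found by the root mean square (RMS) distance between log2 values centred on the mean of each gene, over 9474 named genes at or above the median level. For Il6st they were Niban2 (RMS 0.034), Tmem176a (0.036), Tax1bp3 (0.037), Cd244a (0.038) and Ms4a6b (0.042). For Il6ra they were Tent5a (0.061), Ms4a6b (0.062), Id3 (0.073), Ccr1 (0.077) and Plbd1 (0.079). Ms4a6b was on both lists, with log2 values of 6.57, 6.71, 7.34 and 7.61 in the order WT replicates 1 and 2, Flt3 KO replicates 1 and 2. Il6st was number 10 by likeness to Il6ra, at an RMS of 0.087. With 4 arrays such distances describe the order and size of the values only.

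Monocytes, T cells and plasma cells are known to carry gp130 and the IL-6 receptor, and marker genes of these and other cell types were read on the same arrays. Of 23 measured monocyte and macrophage markers, 5 rose (Ccr2, Cx3cr1, Cd14, Fn1 and Lyz2) and 0 fell in limma. Over all genes 1.08% rose and 1.31% fell. An unadjusted p under 0.05 was reached by 11 markers, each above WT (47.8%, against 6.95% of all genes), and the median difference was 0.34. Relative to the WT mean their median was 0.084 and −0.084 in WT replicates 1 and 2, 0.14 in Flt3 KO replicate 1 and 0.54 in Flt3 KO replicate 2, and their summed intensity was 10340 and 9942 in WT against 10600 and 13100 in Flt3 KO. Of the defining markers, Csf1r, Cd14, Adgre1 and C1qa were all above the median of all genes in both genotypes and Ly6c2 was not analysed here. Among them only Cd14 was past the threshold in limma, with a difference of 1.08 (adjusted p = 0.02). Csf1r had 0.52 (adjusted p = 0.16) and C1qa 0.50 (adjusted p = 0.22). Adgre1 had 0.23 (adjusted p = 0.60), and its groups overlapped. Within Flt3 KO, 19 of the 23 markers stood higher in replicate 2. Il6st and Il6ra also stood higher there, by 0.16 and 0.35, where their gaps between the WT replicates were 0.14 and 0.29. Within WT, 18 of the 23 markers stood higher in replicate 1. They included Cd14 (8.34 and 8.26), Fn1 (5.69 and 5.55) and Lyz2 (7.63 and 7.45) of the 5 that rose. Il6st, Il6ra, Ccr2 (8.43 and 8.52) and Cx3cr1 (7.73 and 7.90) stood higher in replicate 2. In Flt3 KO replicate 1 Il6st stood 0.75 and Il6ra 0.63 above the WT mean, and the 5 markers that rose stood 0.52 (Lyz2) to 0.94 (Fn1) above it. These 5 were picked by the same comparison, so nothing is read from their height. The median of all 23 markers was 0.14 on that array, where 17 lay above the WT mean. The part of monocytes and macrophages in the differences was not tested.

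T cell markers showed 0 of 10 measured genes past the threshold in limma, where 2.39% of all genes were past it. At an unadjusted p under 0.05, 2 stood above WT (20%, against 6.95% of all genes) and 1 below (10%, against 10.1%). The median difference was 0.13 and the summed intensity was 1058 and 1090 in WT against 1082 and 1108 in Flt3 KO. Of the T cell receptor complex genes, Cd3e had 6.56 and 6.80 in WT against 6.95 and 7.0 in Flt3 KO, a difference of 0.29 (adjusted p = 0.20), and Cd3d had 6.03 and 6.38 against 6.45 and 6.65, a difference of 0.35 (adjusted p = 0.25). Cd3g had 6.82 and 6.41 against 6.78 and 6.83, which overlapped, and Cd5 had a difference of −0.36 (adjusted p = 0.085). The other defining markers, Cd3g and Bcl11b, had differences of 0.19 and 0.17, and all 3 defining markers were above the median of all genes. Among 10 plasma cell markers Jchain (1.2) and Slamf7 (0.94) rose and Mzb1 (−0.53) and Xbp1 (−0.25) fell in limma. These 4 are 40% of the list, against 2.39% of all genes, with 2 in each direction. At an unadjusted p under 0.05, 4 plasma cell markers stood above WT (40%, against 6.95% of all genes) and 2 below (20%, against 10.1%). The median difference of this list was 0.12. Summed intensities were 5205 and 5218 in WT against 5786 and 5510 in Flt3 KO. Of the defining plasma cell markers Jchain rose, Sdc1 had −0.15 (adjusted p = 0.60) and Tnfrsf17 lay below the median of all genes. The part of these cell types was not tested either.

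Neutrophil and B cell markers had 0 of 13 and 0 of 10 genes past the threshold in limma and medians of −0.0027 and −0.081. At an unadjusted p under 0.05 there were 3 and 3 (23.1% and 30%, against 17.1% of all genes). Their summed intensities were 571.3 and 630.2 in WT against 633.1 and 555.4 in Flt3 KO for neutrophils, and 1099 and 1080 against 1038 and 970.4 for B cells. The neutrophil genes S100a8 and Ly6g lay below the median of all genes, S100a9 above it, and Cd79a and Pax5 of B cells above it. Markers of conventional dendritic cells, a list that holds Flt3 itself, had a median of 0.0066. At an unadjusted p under 0.05, 5 of its 15 genes stood above WT (33.3%, against 6.95% of all genes) and 2 below (13.3%, against 10.1%). In limma Dpp4 rose and Flt3 fell, which is 13.3% of the list against 2.39% of all genes. Of the defining markers, Clec9a and Zbtb46 lay above the median of all genes and Xcr1 below it. Zbtb46 had 6.15 and 6.25 in WT against 6.51 and 6.86 in Flt3 KO, without overlap, and a difference of 0.48 (adjusted p = 0.11). The part of conventional dendritic cells was not tested. Of 13 pDC genes 6 fell and 0 rose in limma, where 1.31% of all genes fell and 1.08% rose. An unadjusted p under 0.05 was reached by 10, each below WT (76.9%, against 10.1% of all genes), and the median was −0.24.

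**Figure D4:**
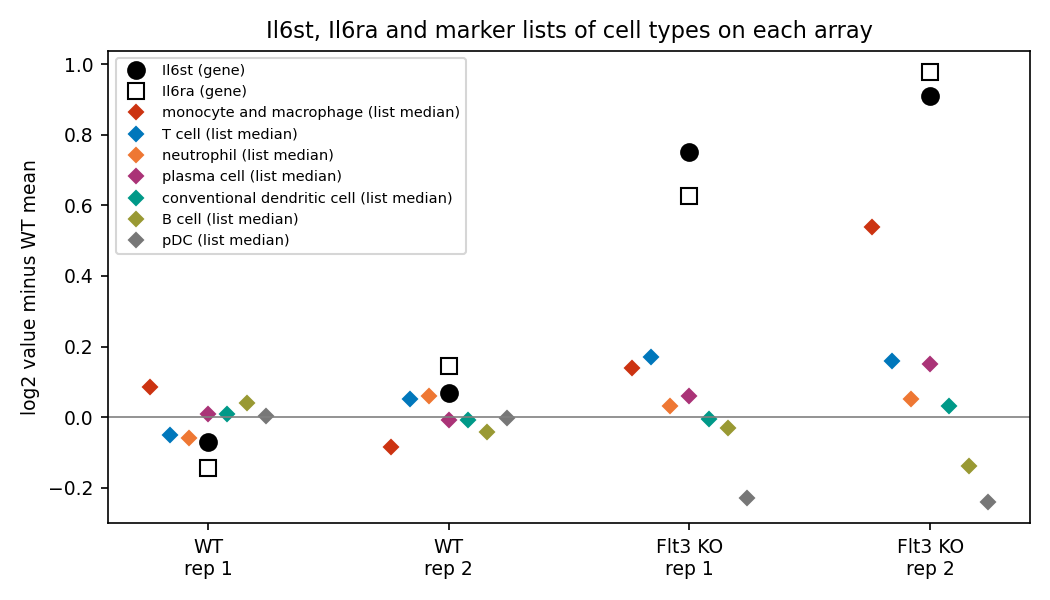
Log2 value minus the WT mean (vertical axis) on each of the 4 arrays, for Il6st and Il6ra (black symbols) and as the median of 7 lists of cell type markers (diamonds). On the Flt3 KO arrays the monocyte and macrophage median is 0.14 and 0.54, Il6st 0.75 and 0.91, and Il6ra 0.63 and 0.98. Single markers behind that median differ widely, and 17 and 21 of the 23 lie above the WT mean. Cd14 (0.81 and 1.35) stands higher than either gene and Cd68 (−0.13 and −0.09) lies below the WT mean.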

How the data were processed

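Processed array values of 4 samples of sorted pDCs were used. The deposited values are the authors' intensity per probe set on a linear scale; background correction, summarisation and scaling are not stated in the labels or the file. Median intensities were 55.1 to 57.2 on the 4 arrays. Of 30177 probe sets, 21789 had 1 symbol in the platform annotation, 1621 several and 6767 none; the brightest single-symbol probe set stood for each of 19938 genes. Log2 intensities, with no constant and no filter, were fitted in limma 3.58.1 under R 4.3.3 (lmFit, eBayes with an intensity trend, no block), with Benjamini-Hochberg adjustment over all genes and a threshold of 0.05. An exact two-sided permutation test of 2 against 2 arrays cannot go below 0.3333, and the number of arrays limits the precision. The fit was tested on simulated data.

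The family and the lists were chosen with earlier results of these data known. Named genes are the family, Flt3, pathway genes past the threshold or else the 3 with the lowest p of a list, defining markers, and the 5 nearest profiles of Il6st and Il6ra; others are marked or belong to a marker list. Sequences come from RefSeq (GRCm38.p6), which was otherwise used for gene order only. Protein sequences were not used here. Alternatives covered the added constant, a filter on dim genes, scaling, the variance prior, probe sets, the replicate block and each array left out.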

Additional observations from a re-analysis of the deposited data

How the results depend on the processing

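The differences of Il6st (0.79 to 0.88), Il6ra (0.77 to 0.84) and Il27ra (−0.48 to −0.40) kept their sign under the 9 alternatives with all arrays. Of these, only the added constant, quantile normalization and median centring can move the difference of a gene with 1 probe set. In the 4 fits with 1 array left out the ranges were 0.75 to 0.91, 0.63 to 0.98 and −0.49 to −0.39. Their sign could not turn there, because the genotypes did not overlap. The counts past the threshold depended on the setting. They were 476 genes, 3 family genes and 8 pathway genes; without the intensity trend they were 108, 1 and 2, and with all 30177 probe sets tested together 219, 1 and 4; the cause was not tested. With 1 array left out, where 1 residual degree of freedom remains, they ranged from 0 to 54 over all genes (0 without either WT array, 54 without the first and 2 without the second Flt3 KO array), from 0 to 1 for the family and were 0 for the pathway genes; at an unadjusted p under 0.05, 2068 to 2689 genes were counted in these fits. The balance of higher and lower genes, 215 and 261, was 217 and 443 after median centring, which moved the median difference of all genes to −0.0373, and 281 and 233 after quantile normalization. The sign of Ptpn2 turned to 0.0095 when probe sets were averaged, since its probe sets differ in sign.

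Replicate numbers are shared between the genotypes, but the labels do not say that they pair the samples, and the deviations of same-numbered arrays correlated at −0.0169 across genes. With the replicate number as a block 375 genes, 2 family genes and 7 pathway genes were past the threshold; the differences are the same by construction, and Il27ra and Il12a (adjusted p = 0.063) were no longer past it. Values near or below 5.89 (Osmr, Il6, Osm and Lif) carry little signal over background, and their signs and sizes are not settled by these arrays.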
